A study of Mus musculus with 16 samples.

Results

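The 9 genes described here encode coreceptors of the B-cell antigen receptor and the phosphatase that several of them recruit: Cd81, Ms4a1, Cd22, Siglecg, Cd72, Cd5, Pirb, Lair1 and Ptpn6. They were picked by gene name from the 38355 genes of the RNA-Seq values. Cd81, Ms4a1, Cd22, Siglecg, Cd72, Cd5, Lair1 and Ptpn6 were found by symbol (8 genes). Pirb was found by its Ensembl identifier, ENSMUSG00000058818, since the values carry its other symbol, Lilrb3. RNA was measured in 4 splenic B-cell subsets, T1, T2, marginal zone (MZ) and follicular (FO), from WT C57BL/6 mice and from Mir146a-/- (KO) mice on the same background, with 2 replicates in each of the 8 groups and 16 libraries in all. Each library came from sorted cells of spleens pooled from 3 to 5 mice. T1 cells were sorted as CD23-negative and AA4-positive with high IgM, T2 cells as CD23-positive and AA4-positive with high IgM, MZ cells as CD23-negative and AA4-negative with high CD21, and FO cells as CD23-positive and AA4-negative with low IgM. None of the 9 genes encodes a protein used in these gates. The KO genotype is that of the whole mouse, so cells other than B-cells lack miR-146a too, and the age of the mice sorted for RNA is not given in the sources used here.

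A B-cell weighs the signal of its antigen receptor through other surface proteins. CD81, a tetraspanin, organizes positive coreceptors in the membrane, and CD20, the product of Ms4a1, is a membrane protein of B-cells linked to calcium flow. The inhibitory coreceptors carry immunoreceptor tyrosine-based inhibitory motifs (ITIMs) or related tails. When Lyn phosphorylates these tails they recruit phosphatases, foremost SHP-1, the product of Ptpn6. CD22 and Siglec-G bind sialic acids, CD72 binds semaphorin 4D, PIR-B binds class I major histocompatibility molecules, LAIR-1 binds collagen, and CD5 is best known on T cells and B1 cells. MZ B-cells are innate-like cells with a low threshold of activation, and FO B-cells are the recirculating majority of the spleen.

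The KO removes miR-146a, so the sequence of the microRNA that is lost is shown with its seed (bases 2 to 8) in capitals, from RefSeq on GRCm38.p6, chromosome 11 from 43374435 to 43374456 on the minus strand:
mmu-miR-146a-5p: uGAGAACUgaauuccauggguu
The annotated 3′ UTRs of the 9 genes (GENCODE M21 on GRCm38, sense strand) were searched for AGTTCTCA, AGTTCTC and GTTCTCA, the 8-base site and the pair of 7-base sites that the seed can match. No UTR of the 9 genes holds any of these 8- or 7-base forms. Among 10270 tested genes with an annotated 3′ UTR, 21.84% hold at least 1 of the 3 forms and 5.03% hold the 8-base form. The absence of a match says only that these letters are not in the annotated UTRs.

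On GRCm38, 5 of the 9 genes lie on chromosome 7, though not side by side: Pirb from 3711409 to 3720391, Lair1 from 4003402 to 4063204, Cd22 from 30865402 to 30880342, Siglecg from 43408204 to 43418358 and Cd81 from 143052739 to 143067934. On chromosome 19 are Cd5 (from 10717116 to 10739002) and Ms4a1 (from 11249675 to 11266241). Cd72 lies on chromosome 4 from 43446462 to 43454628, and Ptpn6 on chromosome 6 from 124720707 to 124738714. Their Ensembl identifiers are ENSMUSG00000037706 (Cd81), ENSMUSG00000024673 (Ms4a1), ENSMUSG00000030577 (Cd22), ENSMUSG00000030468 (Siglecg), ENSMUSG00000028459 (Cd72), ENSMUSG00000024669 (Cd5), ENSMUSG00000055541 (Lair1) and ENSMUSG00000004266 (Ptpn6), beside that of Pirb above. Siglecg and Cd81 are on the plus strand and the other 7 on the minus strand. Exons of Cd72 share 1423 bases with those of Tesk1 on the other strand, a gene that reached 8.81 RPKM at most. Cd22 shares 479 exon bases with the antisense gene Gm29439, Ptpn6 shares 195 with Gm20531 and Cd81 shares 104 with R74862. No source used here says that reads were counted by strand, and reads in these stretches cannot be assigned to 1 gene. Pirb has near-identical relatives, the Pira genes, of which only Pira2 was found among the values, and how uniquely aligned reads were split among them is uncertain.

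The libraries held 9003343 to 26386684 reads by the scaling totals recovered from the values. RPKM (reads scaled to gene length and to the library total) are used throughout. The targeted gene, listed as Mir146, had 0 reads in 14 libraries and 1 read in each WT FO library, so these values cannot check the genotype labels. The T1 libraries stood apart: the 10 highest genes held 22.9% and 25.7% of the summed RPKM in replicate 2 of WT and KO T1, and 9.49% to 15.5% in the others. The sum of 8 plasma cell markers (such as Jchain and Xbp1) was 823 to 4570 RPKM in T1 and 233 to 667 RPKM elsewhere. B-cell markers were present throughout, with 7 genes summing to 8166 to 12410 RPKM. Of the genes for the gated proteins, Fcer2a (CD23) was at 41.2 ± 13 RPKM in T1 B-cells, 655 ± 54.0 in T2 B-cells, 14.7 ± 8.68 in MZ B-cells and 686 ± 59.1 in FO B-cells (SD, n = 4). Cd93 (AA4) was at 31.9 ± 4.72, 11.6 ± 3.75, 0.306 ± 0.0336 and 2.16 ± 0.659 RPKM, and both genes follow the gates. With Cr2 (CD21) and Ighm (IgM) added, the 4 genes summed to 11280 to 36100 RPKM in T1 and 5309 to 5683 in T2. Those sums differ although T1 and T2 were both sorted with high IgM. The sums were 4988 to 6014 RPKM in MZ and 4394 to 4953 in FO, and Ighm by itself is not shown here. Values below come from bulk RNA, in which fewer cells of a type and less RNA per cell cannot be told apart.

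Per kilobase, Ms4a1 was the most abundant of the 9, at 1286 RPKM over all libraries, which ranked 20th of the 12507 genes tested. Next came Cd22 (436 RPKM, rank 83), Ptpn6 (350.2 RPKM, rank 111), Siglecg (254.5 RPKM, rank 167), Cd72 (126 RPKM, rank 368) and Cd81 (72.2 RPKM, rank 739). Pirb was at 24.2 RPKM (rank 2716), Lair1 at 2.88 (rank 9295) and Cd5 at 2.17 (rank 9868). The plot of values by library shows that the levels followed several patterns across the 4 subsets.

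**Figure D1:**
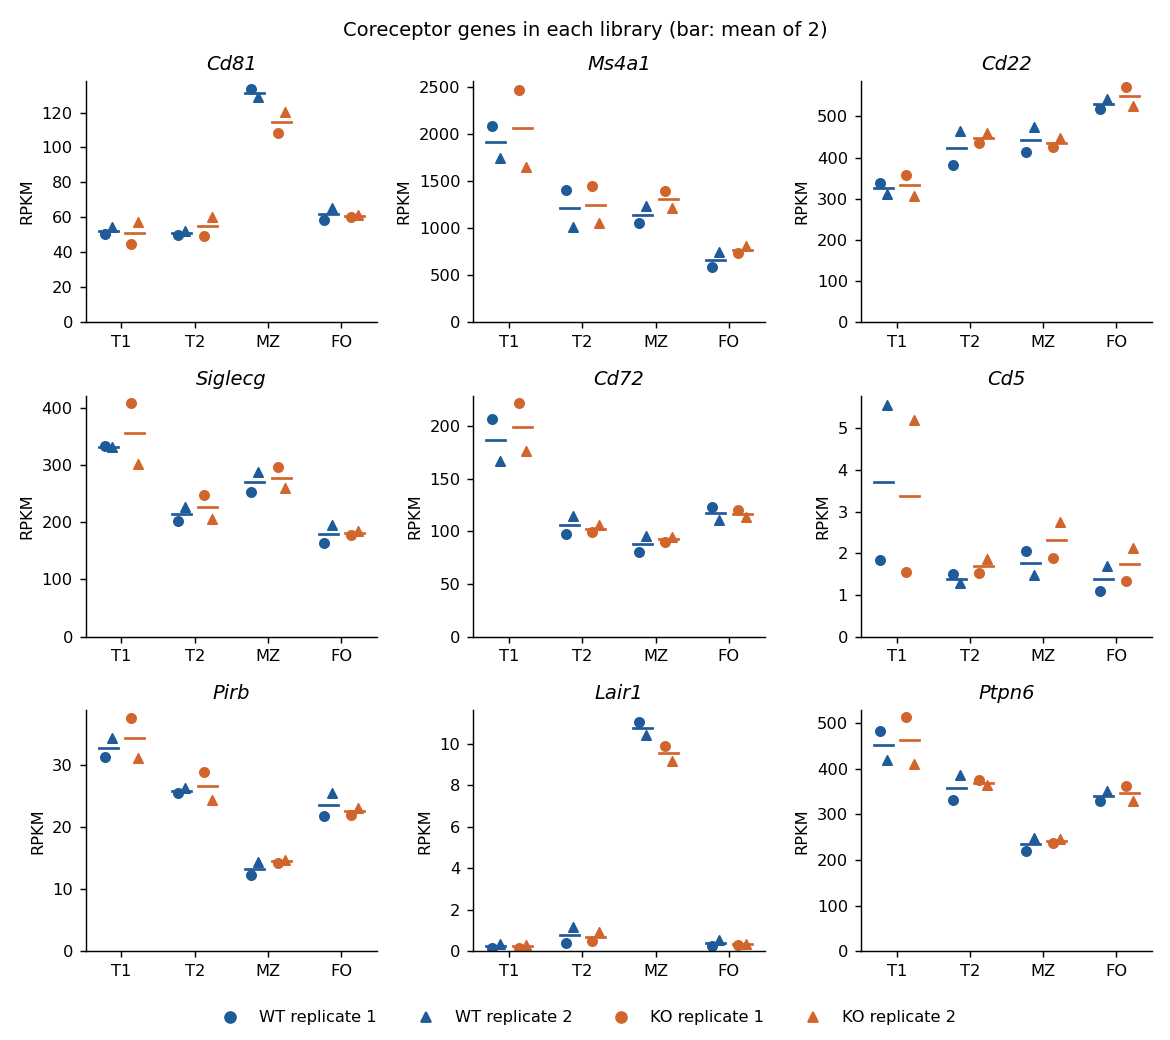
RPKM (y axis, from 0, a separate scale for each gene) of the 9 genes in T1, T2, MZ and FO B-cells; blue is WT, orange is KO, circles are replicate 1, triangles replicate 2, and bars the mean of 2 libraries. Lair1 and Cd81 were highest in all 4 MZ libraries, Pirb and Ptpn6 lowest there, and Cd5 was high only in the T1 replicate 2 libraries.

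Subsets were compared as log2(RPKM + 0.5), a scale that understates changes of low genes, in a limma model of all 8 groups, with the difference averaged over WT and KO. A gene is said to rise or fall where the p adjusted by Benjamini-Hochberg over all 12507 genes was under 0.05, and is called changed beyond a log2 difference of 1 where it also moved by more than that and had a mean RPKM over 1. From T2 to MZ, Cd81, Siglecg and Lair1 rose, Pirb and Ptpn6 fell, and the other 4 did not pass the test (5 of 9, beside 42.4% of all genes). The median log2 difference of the 9 was 0.02, as for all genes. From T1 to T2, Cd22 and Lair1 rose and Ms4a1, Siglecg, Cd72, Pirb and Ptpn6 fell (7 of 9, beside 26% of all genes). The median of the 9 was -0.35 in this comparison, against 0.08 for all genes. The count was 4 with no filter on low values, 3 with quantile normalization and 2 when T1 and T2 were fitted alone. From T2 to FO only Ms4a1 passed, falling (1 of 9, beside 9.8%), a count that ran from 0 to 3 under other settings. Between the mature subsets, 8 of 9 differed from FO to MZ (beside 37.3%, with a median of 0.31 against 0.04), of which Cd81, Ms4a1, Siglecg and Lair1 were higher in MZ and Cd22, Cd72, Pirb and Ptpn6 lower, a count of 5 with quantile normalization. From T1 to MZ 8 of 9 passed (beside 53.2%), with Cd81, Cd22 and Lair1 higher in MZ, and from T1 to FO 7 of 9 (beside 41.7%), with Cd81 and Cd22 higher in FO. The comparisons share libraries (T2 stands in 3 of them), so their counts are not independent.

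**Figure D2:**
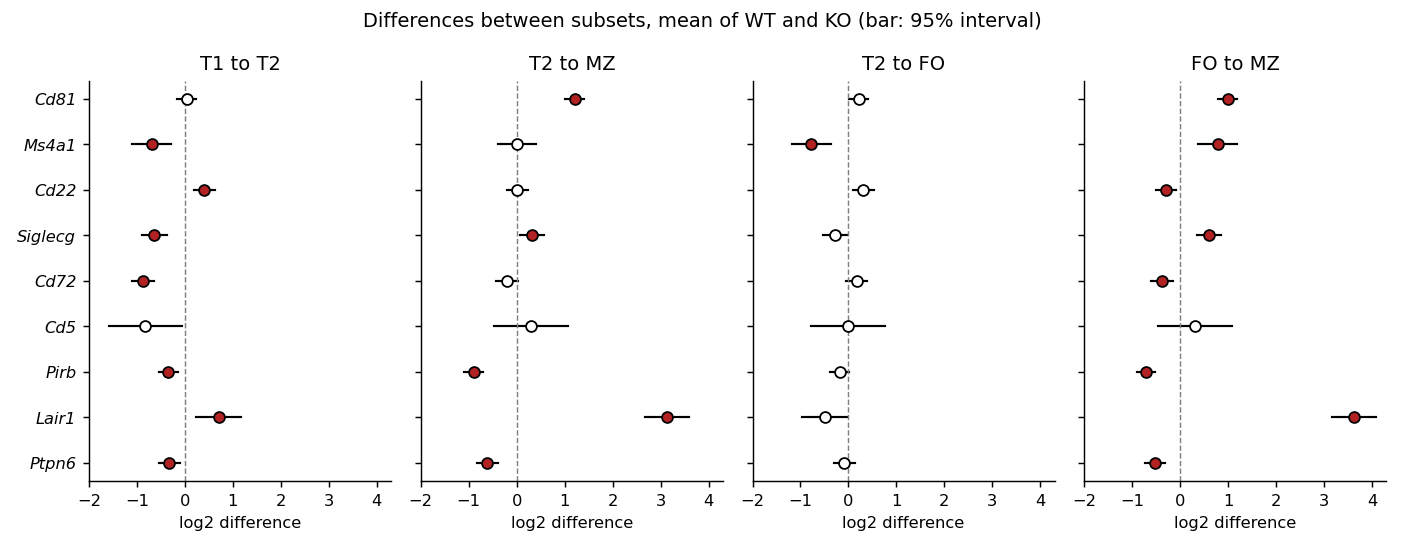
log2 difference in log2(RPKM + 0.5) (x axis) for each gene (rows) from T1 to T2, T2 to MZ, T2 to FO and FO to MZ, averaged over WT and KO; bars are 95% intervals of the limma fit and filled points have an adjusted p under 0.05. From T2 to MZ, Lair1 stood at 3.13 and Cd81 at 1.21, while Pirb stood at -0.89 and Ptpn6 at -0.61.

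Among the positive regulators, Cd81 was highest in MZ B-cells. It was at 134 and 129 RPKM in WT MZ replicates 1 and 2 and at 108 and 120.5 in KO MZ. In T2 it was at 49.8 and 52.1 RPKM in WT and 49.5 and 60.4 in KO. All MZ libraries lay above every library of the other subsets, whose highest value was 65.3 RPKM in WT FO replicate 2. The rise from T2 to MZ was 2.32-fold, from 52.9 ± 5.08 to 123 ± 11.1 RPKM (SD, n = 4), a log2 difference of 1.21 ± 0.09 (SE; 95% interval 1.01 to 1.41, adjusted p = 2.53e-06 from limma). It passed a log2 difference of 1, as 10.8% of all genes did in this comparison, and it did so in WT alone (1.36) and in KO alone (1.06), as 10.6% and 9.44% of all genes did. From FO (61.3 ± 2.86 RPKM) to MZ it was 2.00-fold (log2 0.99, adjusted p = 1.10e-05 from limma). T1 (51.7 ± 5.42 RPKM) and T2 did not differ beyond their spread (log2 0.03, 95% interval -0.17 to 0.23). The difference from T2 to FO (0.21, adjusted p = 0.138 from limma) did not pass the test. The difference from T1 to FO (log2 0.25, adjusted p = 0.0482 from limma) was lost on leaving out any 1 of 13 libraries.

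Ms4a1, for CD20, was highest in T1 and lowest in FO B-cells. In T1 it was at 2080 and 1741 RPKM in WT replicates 1 and 2 and 2464 and 1648 in KO. In FO it was at 581 and 739.5 RPKM in WT and 728 and 803 in KO. Every T1 library lay above every library of the other subsets, of which the highest was KO T2 replicate 1 at 1443 RPKM, and every FO library lay below them. The level fell 2.78-fold from T1 (1983 ± 370.5 RPKM) to FO (713 ± 93.7 RPKM), a log2 difference of -1.47 ± 0.18 (SE; 95% interval -1.87 to -1.06, adjusted p = 1.23e-04 from limma), which passed a log2 difference of 1 as 9.5% of all genes did. T2 (1227 ± 227 RPKM) and MZ (1222 ± 139 RPKM) lay between and did not differ beyond their spread (log2 0.01, 95% interval -0.40 to 0.41). The steps from T1 to T2 (-0.69, adjusted p = 0.0183 from limma) and from T2 to FO (-0.77, adjusted p = 0.0323 from limma) depended on single libraries. They were also lost with no filter on low values and when the compared groups were fitted alone. With quantile normalization the step from T1 to T2 was -0.31 and was lost too. The step from FO to MZ was 0.78 (adjusted p = 0.00659 from limma), but it was lost with quantile normalization (0.75, adjusted p = 0.0716 from limma).

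Of the other genes of the antigen receptor and its positive signalling partners (18 genes in a list, 17 tested), 5 rose and 6 fell from T2 to MZ, beside 22.8% and 19.6% of all genes, with a median log2 difference of -0.13 against 0.02 for all genes. Beyond a log2 difference of 1, Cr2 rose by 2.40, but it encodes the sort marker CD21. Blk, a Src family kinase, rose by 1.23 (adjusted p = 3.03e-07 from limma), from 202 ± 11.9 to 473 ± 11.9 RPKM. Ifitm2 (-1.31) and Ifitm3 (-1.10), members of the family of CD225, fell from low levels. Of 14 ligands and binding partners of the coreceptors (13 tested), 3 rose and 4 fell in this comparison (beside 22.8% and 19.6% of all genes, median -0.15). Cd9, a tetraspanin like CD81, rose by 4.63 (adjusted p = 2.80e-06 from limma), from 1.72 ± 0.362 to 54.2 ± 5.21 RPKM, and Lgals1, for galectin-1, fell by 1.94 on the log2 scale.

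The sialic acid receptors went separate ways. Cd22 was lowest in T1 and highest in FO B-cells. In T1 it was at 339 and 311 RPKM in WT and 359 and 306.5 in KO. In FO it was at 518 and 543 RPKM in WT and 573 and 526 in KO. The T1 libraries lay below all others and the FO libraries above all others. The rise from T1 (329 ± 24.6 RPKM) to FO (540.0 ± 24.3 RPKM) was 1.64-fold, a log2 difference of 0.72 ± 0.10 (SE; 95% interval 0.50 to 0.93, adjusted p = 1.99e-04 from limma). T2 (436 ± 38.8 RPKM) and MZ (440.0 ± 26.5 RPKM) did not differ beyond their spread (log2 0.02, 95% interval -0.20 to 0.23). From T1 to T2 the difference was 0.40 (adjusted p = 0.0111 from limma), and without both T1 replicate 2 libraries it was 0.32 (adjusted p = 0.0634), so the call was lost.

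Siglecg had its highest values in T1 and its lowest in FO B-cells. In T1 it was at 332 and 332 RPKM in WT and 409 and 302 in KO. In FO it was at 163 and 195 RPKM in WT and 177 and 185 in KO. The T1 libraries lay above all others and the FO libraries below all others. The fall from T1 (344 ± 45.6 RPKM) to FO (180.1 ± 13.2 RPKM) was 1.91-fold, a log2 difference of -0.92 ± 0.11 (SE; 95% interval -1.18 to -0.67, adjusted p = 1.12e-04 from limma). T2 B-cells were already at 220.4 ± 20.6 RPKM (a log2 difference of -0.64 from T1, adjusted p = 0.00240 from limma). MZ B-cells held 274 ± 21.6 RPKM, 1.52-fold more than FO (log2 0.60, adjusted p = 0.00182 from limma). The difference of MZ from T2 was smaller (0.31, adjusted p = 0.0463 from limma) and was lost on leaving out any 1 of 13 libraries. Between MZ and FO B-cells, then, Cd22 was lower in MZ by -0.30 (adjusted p = 0.0326 from limma) and Siglecg higher.

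The enzymes that make, transfer and remove the sialic acids these receptors bind changed from T2 to MZ in both directions: of 22 genes in the list, 19 were tested, 8 rose, 4 fell and 7 did not pass, beside 22.8% of all genes higher and 19.6% lower, with a median log2 difference of 0.29 against 0.02 for all genes. The largest falls were in Cmah, the hydroxylase that makes the glycolyl form of sialic acid, the form mouse CD22 prefers, and in St6gal1, which makes the alpha-2,6 linkage that CD22 binds. Cmah fell from 88.3 ± 8.68 to 20.2 ± 2.36 RPKM, a log2 difference of -2.10 ± 0.11 (SE, adjusted p = 1.87e-07 from limma). St6gal1 fell from 85.5 ± 2.82 to 29.6 ± 1.80 RPKM, a log2 difference of -1.52 ± 0.05 (SE, adjusted p = 2.09e-08 from limma). St3gal2, a transferase of the alpha-2,3 linkage, rose from 3.73 ± 0.724 to 14.6 ± 1.2 RPKM (1.84, adjusted p = 2.82e-06 from limma). From T2 to FO 1 gene of this list rose and 1 fell (beside 4.77% and 5.04% of all genes), and Cmah (-0.29, adjusted p = 0.102 from limma) and St6gal1 (-0.05, adjusted p = 0.553 from limma) did not pass.

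Cd72 was highest in T1 B-cells. It was at 206 and 167 RPKM in WT T1 replicates 1 and 2 and at 222 and 176 in KO T1. In MZ it was at 80.4 and 95.3 RPKM in WT and 90.2 and 95 in KO. Every T1 library lay above every other library, and every MZ library below every other. The fall from T1 (193 ± 25.5 RPKM) to T2 (104 ± 7.61 RPKM) was 1.85-fold, a log2 difference of -0.88 ± 0.10 (SE; 95% interval -1.11 to -0.65, adjusted p = 1.98e-04 from limma). It was the only call from T1 to T2 that was kept under every alternative. T2 and FO (117 ± 5.78 RPKM) did not differ beyond their spread (0.17, 95% interval -0.06 to 0.40). From FO to MZ (90.2 ± 6.96 RPKM) Cd72 was lower by -0.38 (adjusted p = 0.0148 from limma). Its ligand gene Sema4d, named here after its values were seen, was at 59.0 RPKM in T2 and 52.9 in MZ, with a log2 difference of -0.15 that did not pass.

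Pirb fell in MZ B-cells. It was at 12.3 and 14.4 RPKM in WT MZ replicates 1 and 2 and at 14.3 and 14.7 in KO MZ. In T2 it was at 25.5 and 26.3 RPKM in WT and 29.0 and 24.4 in KO. All MZ libraries lay below all others, of which the lowest was WT FO replicate 1 at 21.8 RPKM. From T2 (26.3 ± 1.95 RPKM) to MZ (13.9 ± 1.1 RPKM) the level fell 1.89-fold, a log2 difference of -0.89 ± 0.09 (SE; 95% interval -1.09 to -0.70, adjusted p = 1.77e-05 from limma). From T1 (33.6 ± 3.06 RPKM) to MZ it fell by 1.24 on the log2 scale (adjusted p = 1.05e-06 from limma), beyond 1 as 17.4% of all genes were. T2 and FO (23.1 ± 1.71 RPKM) did not differ beyond their spread (-0.18, 95% interval -0.38 to 0.01). Pira2, an activating relative whose reads can be confused with those of Pirb, was lower too, at 3.67 ± 0.411 RPKM in T2 and 1.5 ± 0.127 in MZ (-1.06, adjusted p = 4.71e-05 from limma). From which of the loci the reads came is uncertain. Of 5 close relatives tested, of 17 listed, 3 fell and 0 rose in this comparison (beside 19.6% and 22.8% of all genes, median -0.96), and Ms4a4c, a relative of Ms4a1, fell by 1.83 on the log2 scale.

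Lair1, the collagen receptor, was expressed above 1.17 RPKM in MZ B-cells only. In MZ it was at 11.1 and 10.4 RPKM in WT (754 and 741 reads) and at 9.91 and 9.20 in KO (503 and 608 reads). In T2 it was at 0.414 and 1.17 RPKM in WT and 0.487 and 0.927 in KO, and in T1 at 0.148 and 0.363 in WT and 0.167 and 0.313 in KO. In FO it was at 0.272 and 0.533 RPKM in WT and 0.297 and 0.365 in KO. The MZ libraries were far above all others, which held 7 to 60 reads each. The mean rose 13.5-fold from T2 (0.750 ± 0.361 RPKM) to MZ (10.2 ± 0.798 RPKM). On the scale with the pseudocount the log2 difference was 3.13 ± 0.21 (SE; 95% interval 2.67 to 3.60, adjusted p = 1.22e-06 from limma), with 3.19 in WT and 3.08 in KO. From FO (0.367 ± 0.117 RPKM) to MZ it was 27.7-fold (log2 3.63, adjusted p = 4.86e-07 from limma), beyond 1 as 9.2% of all genes were. Only in WT MZ (10.8 RPKM) and KO MZ (9.55 RPKM) did Lair1 have the group mean over 1 RPKM that the tests required. Its place among the tested genes thus rests on the subset where it was high, and these p-values are not separate support. The differences from T2 to FO (-0.49, adjusted p = 0.143 from limma) and from T1 to FO (0.21, adjusted p = 0.444 from limma) did not pass the test. The rise from T1 to T2 (0.71, adjusted p = 0.0317 from limma) rested on 7 to 60 reads. LAIR-1 is also found on myeloid and NK cells. The sum of 15 myeloid markers was 101 to 156 RPKM in MZ, 98.9 to 166 in T2 and 17.7 to 51.7 in FO, with 1 of 15 at 0 in WT MZ replicate 1. Of its 14 tested genes 3 rose and 4 fell from T2 to MZ (beside 22.8% and 19.6% of all genes), with a median log2 difference of -1.34 against 0.02. From FO to MZ 4 rose and 1 fell (beside 19.9% and 17.4% of all genes), with a median of 1.01 against 0.04. The sum of 5 NK markers was 9.01 to 12.7 RPKM in MZ, 2.69 to 8.24 in T2 and 2.12 to 5.66 in FO, with 1 at 0 in KO FO replicate 1 and none at 0 in MZ or T2. Of the 2 NK markers tested, 1 rose and 1 did not pass from T2 to MZ, where 22.8% of all genes rose. The counts were the same from FO to MZ, where 19.9% of all genes rose. The part of the myeloid or NK cells in the Lair1 result was not tested.

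Of 22 other receptors with inhibitory motifs, 16 were tested. From T2 to MZ 5 rose and 5 fell, beside 22.8% and 19.6% of all genes, and the median log2 difference was 0.01 against 0.02. Fcrl5, a receptor of the Fc receptor-like family, rose from 10.7 ± 1.69 to 203 ± 3.30 RPKM (log2 4.20, adjusted p = 6.16e-04 from limma). Cd300lf rose from 1.14 ± 0.267 to 24.7 ± 3.20 RPKM (3.95, adjusted p = 0.00106 from limma), and Lilrb4, a relative of Pirb, from 3.65 ± 1.04 to 44.3 ± 13.1 RPKM (3.43, adjusted p = 1.80e-06 from limma). Btla, an inhibitory receptor for HVEM, fell from 420.5 ± 31.6 to 142 ± 19.6 RPKM (-1.57, adjusted p = 9.44e-06 from limma). Myeloid cells express Cd300lf and Lilrb4 as well, and the ranges of the myeloid sums above overlapped between T2 and MZ, and their part in these changes was not tested. From T1 to T2, 5 of the 16 rose and 5 fell (beside 16% and 9.94% of all genes). Lilrb4 rose (1.45), and Lag3 (-1.42) and Tigit (-1.61) fell beyond 1, the last pair from 2.41 ± 1.80 and 2.04 ± 1.80 RPKM in T1, where the libraries differed widely.

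**Figure D3:**
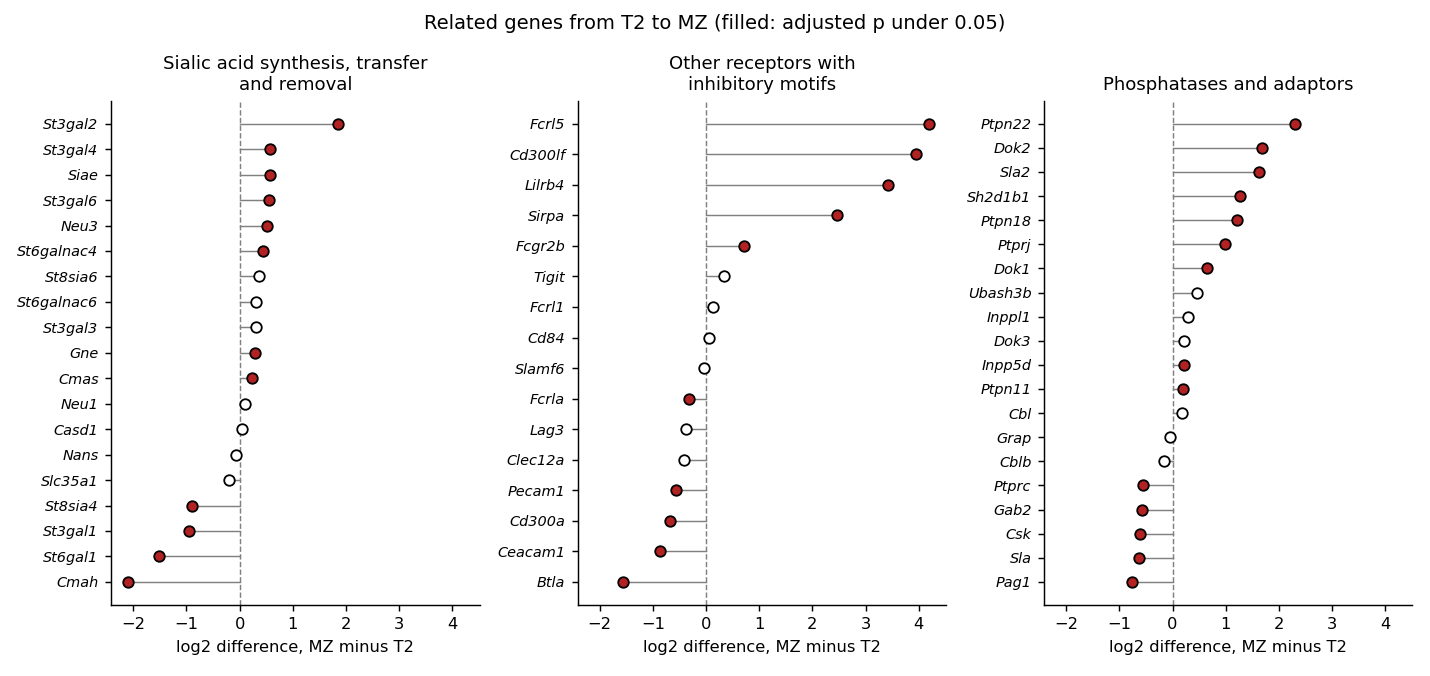
log2 difference from T2 to MZ in log2(RPKM + 0.5), averaged over WT and KO (x axis), for the tested genes of 3 lists (rows, ordered by value); filled points have an adjusted p under 0.05. Cmah and St6gal1 stood lowest among the sialic acid genes, Fcrl5, Cd300lf and Lilrb4 highest among the other receptors, and Ptpn22 highest among the phosphatases and adaptors.

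Cd5 was low in every subset and differed most between replicates. In T1 it was at 1.85 RPKM (48 reads) and 5.56 RPKM (160 reads) in WT replicates 1 and 2 and at 1.56 RPKM (36 reads) and 5.19 RPKM (155 reads) in KO. In T2 it was at 1.5 and 1.28 RPKM in WT and 1.53 and 1.86 in KO, and in MZ at 2.06 and 1.48 in WT and 1.90 and 2.75 in KO. In FO it was at 1.1 and 1.69 RPKM in WT and 1.34 and 2.13 in KO. Only the T1 replicate 2 libraries stood out, and the subsets overlapped. No comparison of Cd5 passed the test: from T1 to T2 the log2 difference was -0.82 (95% interval -1.59 to -0.05, adjusted p = 0.109 from limma), and -0.11 without both T1 replicate 2 libraries. CD5 is abundant on T cells and B1 cells. The sum of 10 T cell markers was 7.49 and 31.9 RPKM in WT T1 and 12.7 and 33.1 in KO T1, none of them at 0. It was 31.7 and 34.3 RPKM in replicate 2 of WT and KO T2. In FO it was 30.2 to 35.0 RPKM, where Cd5 stayed between 1.1 and 2.13 RPKM. Lck alone was at 15.4 to 20.1 RPKM in FO and 12.2 in each T1 replicate 2 library. Cd3g was at 3.3 and 3.2 RPKM in T1 replicate 2 of WT and KO and at 1.1 to 2.8 in FO. The sum of 8 B1 markers was 65.2 and 82.5 RPKM in WT T1 and 40.5 and 82.1 in KO T1, and 36.7 to 52.0 elsewhere. Both the B1 sums and the plasma cell sums (3453 and 4570 RPKM) were highest in the T1 replicate 2 libraries. The part of any of these cell types in the Cd5 values was not tested.

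**Figure D4:**
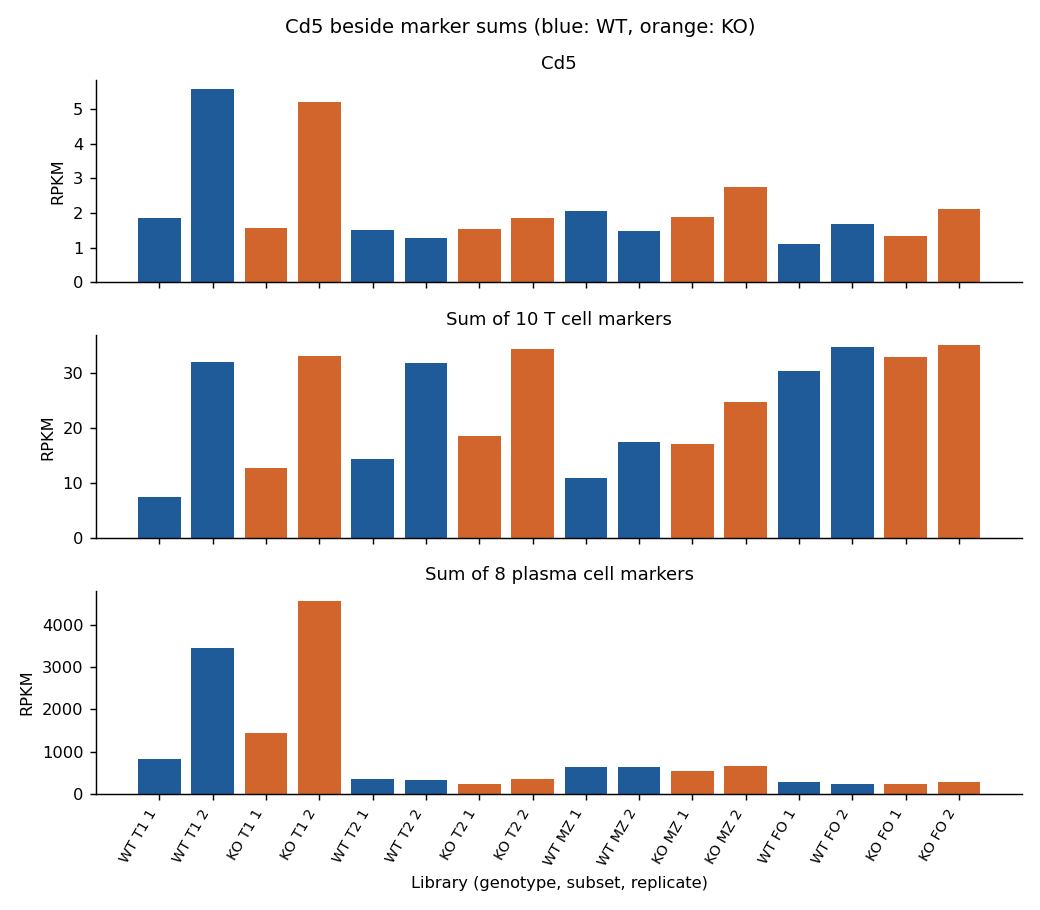
RPKM (y axes, from 0) in each of the 16 libraries (x axis; blue WT, orange KO) of Cd5, of the sum of 10 T cell markers and of the sum of 8 plasma cell markers. Cd5 was above 5 RPKM in the T1 replicate 2 libraries of both genotypes. Those libraries had the highest plasma cell sums, and T cell sums of 31.9 and 33.1 RPKM, beside 30.2 to 35.0 RPKM in FO. The part of either in the Cd5 values was not tested.

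Ptpn6, for SHP-1, was highest in T1 and lowest in MZ B-cells. It was at 482 and 419 RPKM in WT T1 replicates 1 and 2 and 513 and 411 in KO T1. In MZ it was at 219 and 249 RPKM in WT and 236 and 247 in KO. The MZ libraries lay below all others, of which the lowest was WT FO replicate 1 at 328 RPKM. From T2 (364 ± 23.5 RPKM) to MZ (238 ± 13.5 RPKM) it fell 1.53-fold, a log2 difference of -0.61 ± 0.10 (SE; 95% interval -0.83 to -0.39, adjusted p = 5.53e-04 from limma), with -0.61 in both WT and KO. From T1 (456 ± 49.4 RPKM) it fell 1.92-fold. T2 and FO (343 ± 17.4 RPKM) did not differ beyond their spread (-0.09, 95% interval -0.30 to 0.13). Across the 16 libraries Pirb and Ptpn6 moved together (Pearson's r = 0.97 on the log2 scale) and Cd81 and Lair1 did so too (0.95), while Cd81 and Pirb ran opposite (-0.94). These correlations describe libraries that share subsets and carry no test.

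Among 22 phosphatases and adaptors downstream of inhibitory receptors, 20 were tested, of which 9 rose and 5 fell from T2 to MZ (beside 22.8% and 19.6% of all genes, median log2 difference 0.21 against 0.02). Ptpn22, a phosphatase that restrains antigen receptor signalling, rose from 14.6 ± 1.76 to 74.1 ± 6.08 RPKM (2.31, adjusted p = 6.20e-04 from limma). Dok2 rose from 0.544 ± 0.311 to 2.77 ± 0.467 RPKM (1.68, adjusted p = 1.87e-04 from limma) and Sla2, an adaptor, from 0.404 ± 0.124 to 2.28 ± 0.126 RPKM (1.63, adjusted p = 2.03e-05 from limma). Dok2 and Sla2 were low in T2 and met the rule of a mean RPKM over 1 only through MZ, where they were high. The other phosphatases that ITIMs recruit, named here after their values were seen, rose by less: Ptpn11, for SHP-2, by 0.20 (adjusted p = 0.0233 from limma) and Inpp5d, for SHIP-1, by 0.21 (adjusted p = 0.0244 from limma), while Ptpn6 fell. From T1 to T2 Grap, an adaptor, rose beyond 1 (1.07), and 3 of the 20 rose and 5 fell in all (beside 16% and 9.94% of all genes).

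The genes whose log2 values followed each of the 9 most closely over the 16 libraries were found by Pearson's r, as a description. For Cd81 they were Zap70, a kinase best known from T cells (r = 0.994, at 1.06 ± 0.224 RPKM in T2 and 5.83 ± 0.571 in MZ), and Rsu1 (0.986). For Lair1 they were Trpm2, a cation channel (0.988, at 0.350 ± 0.119 RPKM in T2 and 9.0 ± 1.61 in MZ), and Dph5 (0.987). Ptpn6 was followed by Stx2 (0.989) and Myo1c (0.988), and Pirb by Trim46 (0.985) and Gpd1l (0.984). Ms4a1 was followed by Arhgap11a (0.980) and Dpp4 (0.978), Siglecg by 4930426D05Rik (0.983) and Ccdc134 (0.966), and Cd72 by Ehbp1l1 (0.970) and Igsf8 (0.969). The closest for Cd22 were Mcm3ap and Angel1 (0.962 for both), and for Cd5 they were Sh3bgrl2 (0.933) and Pstpip2 (0.921), which like Cd5 differed widely within T1. The likeness rests on libraries that share subsets, and no test was made.

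The comparison of KO with WT asks whether loss of miR-146a went with a change of these genes in a subset or during the step from T2. None of the 9 genes differed between KO and WT by limma within a subset (0 of 9 in each, beside 0.04% of all genes for T1 and FO, 0.048% for T2 and 0.064% for MZ), in the mean of the 4 subsets (0 of 9, beside 0.232%), or in the difference between genotypes of the change from T2 to MZ or from T2 to FO (0 of 9, beside 0.008% for each). The unadjusted p was under 0.05 for 0 of 9 in every one of these comparisons (beside 3.51%, 3.37%, 1.65% and 0.919% of all genes in T1, T2, MZ and FO, 7.98% in the mean and 1.66% and 0.983% for the changes from T2 to MZ and T2 to FO), and the limma-voom test on recovered reads called 0 of 9 too. The median difference of the 9 in the mean of the 4 subsets was 0.04, against 0.02 for all genes. Of the 89 tested genes of the 6 lists of related genes, 0 passed in that comparison. KO was higher in 24 of 36 pairs of gene and subset, with log2 differences from -0.20 to 0.31. The median difference of all genes was also above 0 in every subset, between 0.002 (T1) and 0.031 (MZ). That of the 9 genes lay between 0.022 (FO) and 0.046 (T2 and MZ). The 36 pairs reuse the same 16 libraries and are not independent, and whether 24 exceeds the share among all genes was not tested. In 3 of the 36 pairs the KO and WT libraries did not overlap, where the share of all genes without overlap was 21.4% for T1, 22.5% for T2, 29.4% for MZ and 27.2% for FO. The 3 pairs were Cd81 in MZ (KO 114 ± 8.67 RPKM, WT 131 ± 3.42; -0.20, 95% interval -0.48 to 0.08), Lair1 in MZ (9.55 ± 0.502 and 10.8 ± 0.466; -0.16, 95% interval -0.82 to 0.50) and Cd5 in T2 (1.69 ± 0.232 and 1.39 ± 0.160; 0.21, 95% interval -0.88 to 1.30), each with an adjusted p of 1 from limma (SD, n = 2).

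**Figure D5:**
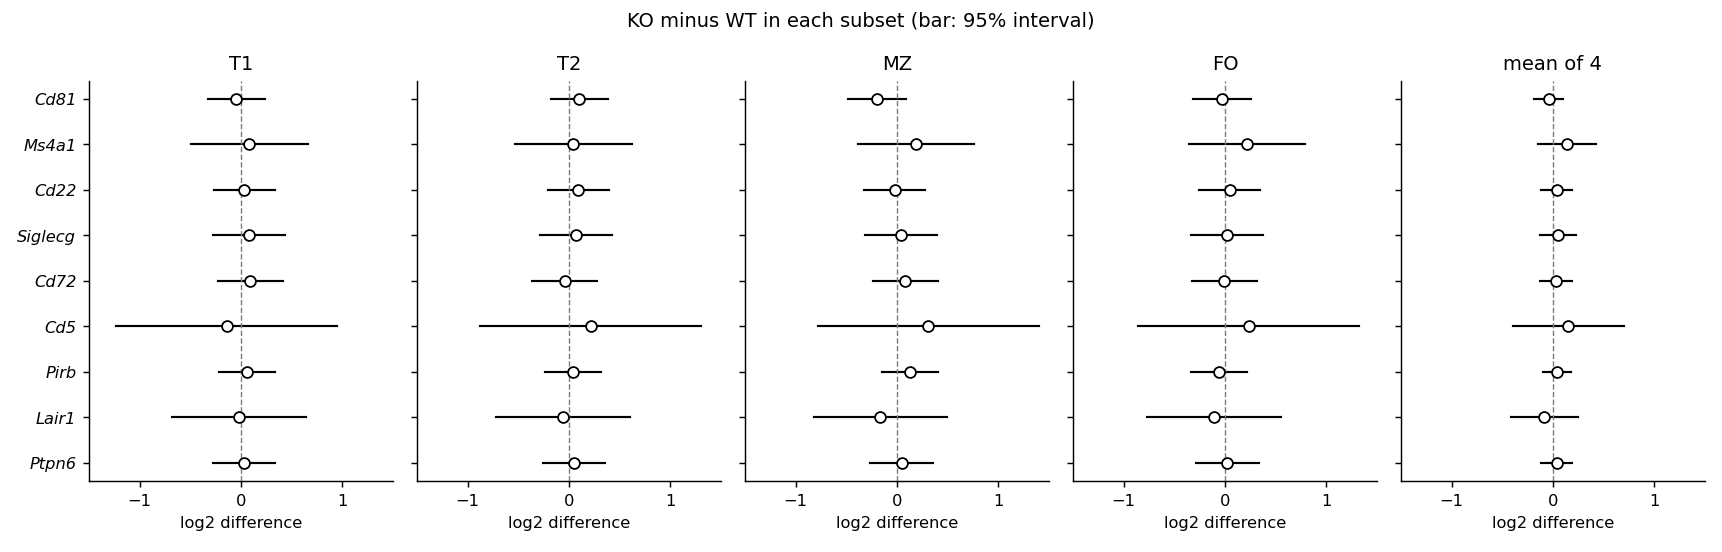
log2 difference of KO minus WT in log2(RPKM + 0.5) (x axis) for each gene (rows) in T1, T2, MZ and FO B-cells and in the mean of the 4 subsets; bars are 95% intervals of the limma fit and all points are open, since none had an adjusted p under 0.05. The widest bars are those of Cd5 and Lair1, and every bar includes 0.

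The intervals bound what these libraries could show. In the mean of the 4 subsets the 95% intervals of the 7 genes other than Cd5 and Lair1 lay within -0.18 to 0.42 on the log2 scale. For Cd81 the interval was -0.18 to 0.10, for Cd22 -0.11 to 0.19, for Siglecg -0.12 to 0.23, for Cd72 -0.13 to 0.19, for Pirb -0.10 to 0.18, for Ptpn6 -0.12 to 0.19 and for Ms4a1 -0.15 to 0.42. For Cd5 it was -0.39 to 0.70 and for Lair1 -0.42 to 0.24. In a single subset the intervals of the 7 genes reached from -0.53 to 0.79, and the interval of Ms4a1 in FO B-cells held ratios of KO to WT from 0.784 to 1.73. The largest difference between genotypes in the change from T2 to MZ was that of Cd81, which rose by 1.36 in WT and 1.06 in KO, a difference of -0.30 (95% interval -0.70 to 0.10).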

How the data were processed

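RNA-Seq of 16 libraries (T1, T2, MZ and FO B-cells, WT and KO, 2 replicates each) was used. The authors aligned filtered reads to mm10 with TopHat, kept unique reads, and deposited values as RPKM per gene from custom scripts. Tool versions are not given in these sources. The authors' read counts, tested with DESeq and edgeR, were not used here. RPKM steps gave whole reads within 0.01 reads for all but 1 of 23194 genes above 0 (15161 genes were at 0 throughout). The totals of 9003343 to 26386684 reads set the precision.

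Here, log2(RPKM + 0.5) was fitted with limma 3.58.1 in R 4.3.3, with a variance trend, for the 12507 genes whose mean RPKM was over 1 in some group. P was adjusted within each comparison. Python 3.11.15, numpy 2.4.6, pandas 2.3.3 and matplotlib 3.10.9 were used. The fit was tested on simulated data. Seed matches shorter than 7 bases are not reported here. Whether the pools of a group held separate mice is not stated, and p-values measure the spread between these libraries. All 9 genes are named, with the 2 genes most like each and at most the 3 largest called changes in each direction per list. The 9 genes and the lists were chosen with earlier results of these data known. Alternatives were pseudocounts of 0.1 and 1, no filter, median-ratio scaling, quantile normalization, a replicate block, fits of the compared groups alone, limma-voom on recovered reads and leaving out each library. Leaving out both T1 replicate 2 libraries or all 4 T1 libraries was chosen after seeing the data.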

Additional observations from a re-analysis of the deposited data

How the results depend on the processing

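No value of the 9 genes changed sign past the threshold in the 13 comparisons under any of the 26 alternative settings, and 2878 of 2988 values kept their side of it. From T2 to MZ the calls for Cd81, Pirb, Lair1 and Ptpn6 held under all of them, as did those from FO to MZ for Cd81, Siglecg, Pirb, Lair1 and Ptpn6. All 7 comparisons that involve KO against WT gave 0 of 9 under every setting, with adjusted p from 0.550 up. The count of 7 of 9 from T1 to T2 was 4 with no filter on low values, 3 with quantile normalization and 2 when the compared groups were fitted alone. The count of 1 from T2 to FO was 0 with no filter and 0 with the compared groups alone, 2 with median-ratio scaling, 2 with limma-voom and 3 with the replicate block. The count of 8 from FO to MZ was 5 with quantile normalization. Leaving out 1 library gave 3 to 7 from T1 to T2 (4 without KO T1 replicate 1, 3 without KO T2 replicate 2) and 0 to 2 from T2 to FO.

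Leaving out 1 library lost these calls. Siglecg from T2 to MZ (log2 0.25 to 0.38) was lost without any of 13 libraries, being kept without KO T1 replicate 1, KO T1 replicate 2 or KO T2 replicate 1, and Cd81 from T1 to FO (0.16 to 0.34) without any of 13, being kept without KO T1 replicate 2, KO T2 replicate 1 or KO T2 replicate 2. Ms4a1 from T2 to FO (-0.89 to -0.66) was lost without either WT MZ library, any FO library or replicate 1 of WT or KO T2. Ms4a1 (-0.84 to -0.55) and Lair1 (0.49 to 0.92) from T1 to T2 were lost without replicate 1 of WT or KO T1 or replicate 2 of WT or KO T2. Pirb (-0.41 to -0.28) from T1 to T2 was lost without KO T1 replicate 1 or KO T2 replicate 2, and Ptpn6 (-0.40 to -0.24) without WT or KO T1 replicate 1, WT T2 replicate 1, either KO T2 library or either WT FO library. Cd22 from FO to MZ (-0.34 to -0.25) was lost without any FO library, either KO MZ library or WT MZ replicate 1, and Cd72 (-0.44 to -0.31) without replicate 1 of WT MZ, WT FO or KO FO. Siglecg from T1 to MZ (-0.43 to -0.21) was lost without either WT T1 library, replicate 1 of KO T1 or WT MZ, or KO MZ replicate 2. Cd5 passed from T1 to T2 and from T1 to FO without replicate 1 of WT or KO T1, with log2 differences down to -1.19, and from T1 to MZ without KO T1 replicate 1 (-0.89). A lone library in a group was assumed to vary like the others. The cause was not tested.

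Without both T1 replicate 2 libraries, the counts were 6 from T1 to T2, 8 from T1 to MZ and 7 from T1 to FO. All genes passing numbered 3249 from T1 to T2 and 1421 with the compared groups alone, and 1226 from T2 to FO, which became 709 with no filter, 2190 with the replicate block and 222 with the compared groups alone. Leaving out 1 library gave 22 (without KO FO replicate 1) to 2002 (without WT T2 replicate 2) there. For KO against WT all genes passing numbered 5, 6, 8 and 5 in T1, T2, MZ and FO, 29 in the mean of the 4 and 1 for each difference in the change from T2, and 18, 16, 36, 23, 64, 18 and 15 with no filter. Correlations of same-numbered libraries about their group means were 0.076 to 0.453 between subsets of 1 genotype (0.190 to 0.445 within KO). Between KO and WT they were -0.227 to 0.300. Not every pair was above 0.1, and the numbers were not taken to pair the samples. Yet all pairs within a genotype were above 0. Thy1, Cd3d, Cd3e and Cd3g were higher in replicate 2 than in replicate 1 of every group, though Lck was not. Whether same-numbered libraries shared a pool is not stated, and the main fit leaves out any such pairing. The replicate block added Cd22 and Siglecg from T2 to FO and Cd5 from T1 to FO. Median-ratio scaling moved the median of all genes by less than 0.1 in each comparison. With 7 to 60 reads for Lair1 outside MZ and 28 to 160 for Cd5, changes of these genes are resolved only when large.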
